A study of Mus musculus with 4 samples.

Results

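The enzymes that bring pyruvate into the mitochondrion, turn it through the citric acid cycle and pass reducing power and nitrogen between mitochondrion and cytosol were examined in mouse quadriceps. The 33 genes of this pathway were chosen by symbol, with earlier results of these data known. Of these, 32 were represented by an array row that carries that symbol alone. All 32 were among the 13308 genes tested, out of 22180 genes named on the array. Mpc2 was not analysed here. Total RNA came from the quadriceps of 2 wild-type mice (WT) and 2 mice labelled NF90-NF45 dbTg, double transgenic for these RNA-binding partners. In both genotypes, replicate 1 is a male and replicate 2 a female. Age was 17 to 18 weeks for WT replicate 1 and 16 weeks for WT replicate 2 and both dbTg mice. For the transgenes' promoter and the strain, the sources used here give no entry. With 1 array per mouse and 2 mice per genotype, precision is limited by the number of arrays. The limma p-values weigh a difference against the spread between these samples within a group, moderated by the spread of other genes.

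Pyruvate, the product of glycolysis, crosses the inner mitochondrial membrane through the pyruvate carrier and is converted to acetyl-CoA by the pyruvate dehydrogenase complex. Kinases switch that complex off and phosphatases switch it on. Acetyl-CoA is oxidised in the citric acid cycle, which supplies NADH and succinate to the respiratory chain. The malate-aspartate shuttle moves cytosolic reducing power into the mitochondrion, the transaminases tie the cycle to alanine and aspartate, and pyruvate carboxylase and the malic enzymes fill or drain it. In muscle these genes are most active in oxidative fibres.

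Muscle fibre markers were high on all 4 arrays, and Ilf2 was far higher in dbTg. The 16 tested fibre markers had 0 genes past the threshold in limma. At an unadjusted limma p under 0.05, 3 read lower (18.8%, against 4.64% of all tested genes) and 2 higher (12.5%, against 14.0%). Log2 differences ran from -0.88 (Ryr1) to 0.51 (Myh1), with a median of -0.05. Summed levels of these markers on the linear scale were 19144 and 20400 in WT and 19463 and 18732 in dbTg. The brightest of them, the actin gene Acta1 and the myosin gene Myh4, read between 11.0 and 11.2 on every array (log2 scale). Ilf2, which encodes NF45, read 5.03 and 5.04 in WT and 10.4 and 10.2 in dbTg. The 8 fast fibre markers had a median difference of -0.04 and overlapping groups throughout. The replicates stood apart in slow or oxidative fibre markers. All 10 of these read higher in replicate 2 than in replicate 1 of both groups. Their mean level was 3.76 and 6.09 in the WT replicates and 4.03 and 5.44 in the dbTg replicates, in that order, and the slow myosin gene Myh7 read 2.30, 6.29, 1.62 and 5.33. Macrophage and leukocyte markers differed by genotype. Of 19 tested, 18 had positive differences and 11 were higher in dbTg past the threshold in limma, as were 2.01% of all tested genes. Summed linear levels of these markers were 142 to 166 in WT and 740 to 836 in dbTg.

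Promoter windows are shown for the gene that passed the threshold (Gpt2), for the next 2 by the size of a negative difference (Me1 and Pdpr), and for the 2-oxoglutarate dehydrogenase gene Ogdh, which holds a monomer site of the estrogen-related receptors next to its start. These receptors are known regulators of oxidative enzymes. Each window runs 5′ to 3′ on the gene's strand, from 250 bases before to 50 after a RefSeq start, with GRCm38.p6 coordinates. Capitals mark matches to the motifs searched.

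Gpt2, chr8:85492326-85492625, plus strand: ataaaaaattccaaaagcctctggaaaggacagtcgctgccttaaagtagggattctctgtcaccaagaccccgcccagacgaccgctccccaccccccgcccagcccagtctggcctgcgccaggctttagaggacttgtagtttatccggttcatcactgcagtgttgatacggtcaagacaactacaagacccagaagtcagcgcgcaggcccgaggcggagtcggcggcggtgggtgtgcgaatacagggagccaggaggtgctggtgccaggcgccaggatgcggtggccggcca

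Me1, chr9:86695865-86696164, minus strand, 1 of 2 windows: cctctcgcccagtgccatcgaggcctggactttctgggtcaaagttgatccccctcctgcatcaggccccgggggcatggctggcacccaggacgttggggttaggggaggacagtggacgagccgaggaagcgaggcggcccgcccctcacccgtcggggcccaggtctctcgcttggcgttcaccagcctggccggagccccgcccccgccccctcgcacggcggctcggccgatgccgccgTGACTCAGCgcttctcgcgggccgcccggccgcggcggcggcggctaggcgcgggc

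Pdpr, chr8:111094495-111094794, plus strand: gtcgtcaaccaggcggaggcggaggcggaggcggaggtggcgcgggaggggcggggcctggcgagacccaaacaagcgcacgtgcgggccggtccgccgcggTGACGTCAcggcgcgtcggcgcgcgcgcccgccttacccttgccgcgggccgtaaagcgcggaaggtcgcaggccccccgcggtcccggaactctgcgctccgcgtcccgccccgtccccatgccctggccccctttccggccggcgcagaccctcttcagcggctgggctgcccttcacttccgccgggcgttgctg

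Ogdh, chr11:6291920-6292219, plus strand, 1 of 6 windows: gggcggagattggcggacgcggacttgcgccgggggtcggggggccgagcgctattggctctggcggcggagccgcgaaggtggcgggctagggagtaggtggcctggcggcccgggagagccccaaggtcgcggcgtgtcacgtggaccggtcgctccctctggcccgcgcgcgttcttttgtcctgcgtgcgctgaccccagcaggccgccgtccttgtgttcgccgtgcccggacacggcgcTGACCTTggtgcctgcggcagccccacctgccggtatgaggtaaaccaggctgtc

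Of the 33 listed genes, 29 had a window, and Pdp1, Idh3a, Gpt and Me2 had none. On either strand, the estrogen-related receptor monomer site AAGGTCA occurred in 2 of the 29 members (6.90%; Ogdh and Got1) and in 5.38% of all 27025 genes with a window. Its extended form TCAAGGTCA, which contains the shorter site, was in 0 of them and in 0.466% of all genes. The NRF1 motif was in Dld and Sucla2 (6.90%, against 5.19% of all genes) and the ETS motif CCGGAAGT in Dlst (3.45%, against 4.31%). After the windows had been read, the core of the antioxidant response element, TGACNNNGC, and the palindromic cAMP response element TGACGTCA were added. The first occurred in 7 of the 29 members (24.1%, against 14.0% of all genes), among them Me1, where it starts 6 bases before the gene's start. The second occurred in Mdh2, Ogdh and Pdpr (10.3%, against 2.03%), in Ogdh in other windows than the one printed. The Gpt2 window held none of these letters. The median share of G and C was 60.3% over the member windows and 52.7% over all windows. Its part in the motif counts was not tested. A match describes the sequence and does not show binding.

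Most of the enzymes read slightly lower in dbTg muscle, and 1 passed the threshold. Gpt2, the mitochondrial alanine aminotransferase, fell in dbTg, and 0 members rose past the threshold. Over all tested genes, 0.203% were called lower and 2.01% higher (limma, Benjamini-Hochberg adjusted p under 0.05). At an unadjusted p under 0.05, 9 members were lower and 1 was higher, where 4.64% and 14.0% of all tested genes were. The median log2 difference of the members, dbTg minus WT, was -0.23, beside 0.089 for all tested genes. Negative differences were found for 26 of the 32 members and for 39.5% of all tested genes. In 19 members the difference was negative within both sexes, as in 22.2% of all tested genes. Both dbTg arrays lay below both WT arrays for 17 members (53.1%, against 16.3% of all tested genes) and above them for 1 (against 33.7%). The members were chosen with earlier results of these data known, and the comparison depends on which genes they are set beside. Among the 255 other genes at or above the members' median level, 55.3% had negative differences and the median was -0.05. Both dbTg arrays lay below both WT arrays in 33.3% of these and above them in 28.6%. An unadjusted p under 0.05 was found in 14.1% in the lower and 13.7% in the higher direction. Of the 255, 2 were called lower and 6 higher in limma. Members dimmer than that level, among them Gpt2, Pdpr and Me3, are here set beside brighter genes. Among the 7104 tested genes at least as bright as the dimmest member, 37.4% had negative differences, 17.4% had both dbTg arrays below and 37.8% above, and the median was 0.12. Endothelial markers were lower as well, with 13 of 13 negative, 0 called in limma (5 at an unadjusted p under 0.05), a median of -0.42 and summed linear levels of 341 and 376 in WT and 207 and 253 in dbTg. The part of these cells in the members' values was not tested. In bulk tissue, fewer cells of a type and less RNA per cell cannot be told apart. Leaving out WT replicate 1 gave 29 negative members and a median of -0.30. Leaving out WT replicate 2 gave 21 and -0.16.

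**Figure D1:**
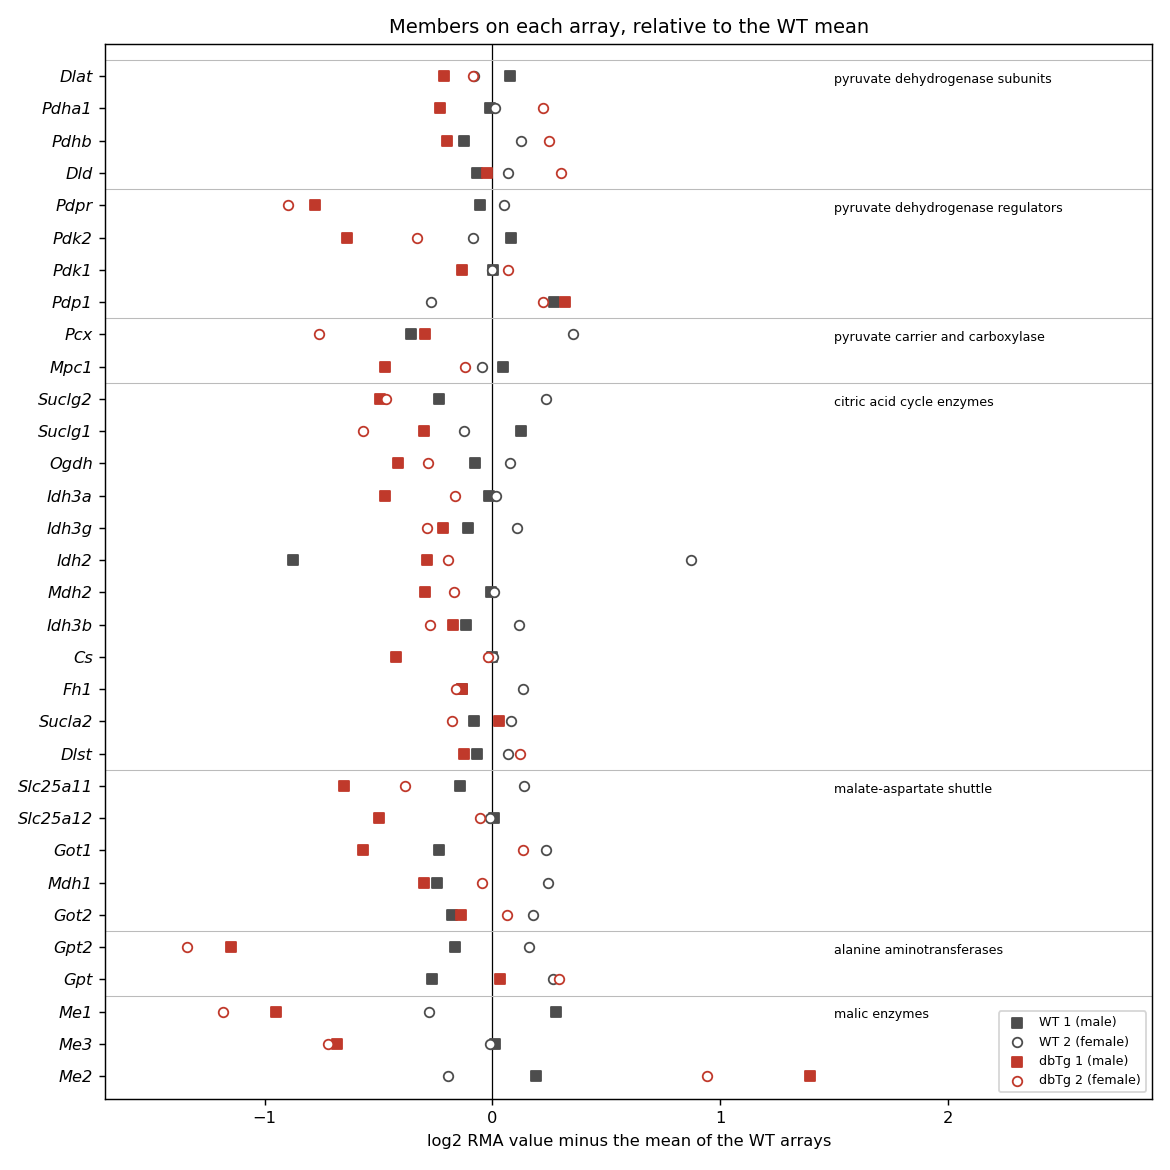
The log2 value of each member on each array, as the distance from the mean of the WT arrays (x axis), with genes grouped by role (y axis); filled squares are males, open circles females, grey WT and red dbTg. Both dbTg arrays lie left of both WT arrays for 17 of the 32 genes and right of them for Me2, and the WT arrays of Idh2 lie furthest apart.

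The subunits of the pyruvate dehydrogenase complex differed little between the groups. None of the 4 was called or had an unadjusted p under 0.05 in limma, and their median difference was 0.01. Pdha1, the catalytic alpha subunit, read 8.21 and 8.23 in WT and 7.99 and 8.44 in dbTg. The dbTg arrays thus enclosed the WT arrays, and the difference was -0.00 with a 95% interval of -0.43 to 0.42. Pdhb, its beta partner, differed by 0.02 (95% interval -0.42 to 0.47). Dlat, the acetyltransferase core, differed by -0.15 (-0.52 to 0.23), and Dld, the dihydrolipoyl dehydrogenase that several complexes share, by 0.14 (-0.23 to 0.51). These intervals do not show that the levels were equal.

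Among the 4 regulators of this complex, 0 passed the threshold in limma, and 2 had an unadjusted p under 0.05 in the lower direction. Pdpr, the regulatory subunit of pyruvate dehydrogenase phosphatase, read 6.78 and 6.88 in WT and 6.05 and 5.93 in dbTg. The groups did not overlap, and the WT gap of 0.10 was small beside the difference of -0.84 (SE 0.16, limma adjusted p = 0.0512), which leaves 55.9% of the WT level. Males differed by -0.73 and females by -0.95. Pdpr missed the threshold. With all 4 arrays, it passed at a 60th percentile filter (limma adjusted p = 0.0408), when probe sets were averaged (0.0499) and under robust eBayes (0.0452). With a replicate block its limma adjusted p was 0.107. Leaving out 1 array gave differences from -0.90 to -0.78. Pdk2, a kinase that inhibits the complex, read 7.74 and 7.57 in WT and 7.02 and 7.32 in dbTg. Its difference of -0.48 (SE 0.17, adjusted p = 0.183) was -0.72 between males and -0.25 between females. The kinase gene Pdk1 differed by -0.03 and the catalytic phosphatase gene Pdp1 by 0.27, with overlapping groups for both.

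Pyruvate entry and carboxylation did not pass the threshold. Mpc1, a subunit of the mitochondrial pyruvate carrier, read 8.40 and 8.31 in WT and 7.89 and 8.24 in dbTg, a difference of -0.30 (95% interval -0.68 to 0.08). Both dbTg arrays were lower than both WT arrays, the female one by 0.08 relative to the female WT array. Pcx, pyruvate carboxylase, which makes oxaloacetate from pyruvate, read 3.32 and 4.04 in WT and 3.38 and 2.92 in dbTg. The groups overlapped, and the difference of -0.53 was smaller than the WT gap of 0.71.

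The citric acid cycle enzymes had small differences, nearly all negative. Of 12 members, 11 had negative differences, from -0.48 to -0.07, and the other, Dlst, was at 0.00. Of these 12, 8 had both dbTg arrays below both WT arrays, as had 16.3% of all tested genes and 33.3% of the 255 bright ones. In the lower direction 3 had an unadjusted p under 0.05, as had 4.64% and 14.1% of those genes, and 0 passed the adjusted threshold in limma. Among these 3, Suclg1 and Suclg2 are dimmer than the 255 genes. The median of the 12 members was -0.24, with -0.18 between the males and -0.33 between the females. Suclg2, the GTP-forming subunit of succinyl-CoA ligase, read 6.30 and 6.77 in WT and 6.04 and 6.07 in dbTg (difference -0.48, SE 0.20, limma adjusted p = 0.261). Suclg1, the subunit common to both forms of that ligase, read 7.34 and 7.10 in WT and 6.92 and 6.65 in dbTg (difference -0.43, SE 0.17, adjusted p = 0.246). Both sets of arrays were separate, though for Suclg2 the difference barely exceeded the WT gap of 0.47. The ATP-forming subunit gene Sucla2 differed by -0.07, with overlapping groups. Ogdh, the first subunit of the 2-oxoglutarate dehydrogenase complex, whose window is printed above, read 8.51 and 8.66 in WT and 8.17 and 8.30 in dbTg. Its difference of -0.35 (SE 0.14, adjusted p = 0.237) was nearly the same in both sexes, at -0.33 and -0.36. Dlst, the second subunit of that complex, had a 95% interval of -0.37 to 0.37.

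Citrate synthase and the NAD-dependent isocitrate dehydrogenase also had negative differences, with 0 called in limma. Cs, the enzyme that opens the cycle and a common gauge of mitochondrial content, read 8.35 and 8.35 in WT and 7.92 and 8.33 in dbTg. The female dbTg array lay only 0.02 below its WT counterpart, whereas the male one lay 0.42 below. The difference was -0.22 (95% interval -0.62 to 0.18). The 3 subunit genes of NAD-dependent isocitrate dehydrogenase, Idh3a, Idh3b and Idh3g, differed by -0.32, -0.22 and -0.25, each with separate groups and adjusted p of 0.300, 0.424 and 0.380. Mdh2, mitochondrial malate dehydrogenase, differed by -0.23 against a WT gap of 0.01, and Fh1, fumarase, by -0.15 with overlapping groups.

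Idh2, the NADP-dependent mitochondrial isocitrate dehydrogenase, stood out for its spread rather than for genotype. It read 5.90 and 7.65 in WT and 6.48 and 6.58 in dbTg. The WT gap of 1.75 was the widest of the 32 members, and the dbTg arrays fell inside it. The difference was -0.24 (95% interval -1.43 to 0.95), 0.59 between males and -1.07 between females. Leaving out WT replicate 1 made it -1.12, and leaving out WT replicate 2 made it 0.63. The slow fibre markers moved with Idh2 in WT, with summed linear levels of 640 and 2039 in its replicates. In dbTg those sums were 783 and 1516 while Idh2 differed by only 0.09 between the arrays, and their part in the result was not tested.

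The malate-aspartate shuttle had 5 negative differences, with 0 members past the threshold in limma and 1 at an unadjusted p under 0.05. That gene was Slc25a11, the carrier that exchanges malate for 2-oxoglutarate. It read 7.75 and 8.03 in WT and 7.24 and 7.50 in dbTg. The groups were separate, and the difference of -0.52 (SE 0.17, adjusted p = 0.171) was even across the sexes, at -0.51 and -0.52. Slc25a12, an aspartate-glutamate carrier, differed by -0.28, with -0.51 between males and -0.04 between females. The enzymes of the shuttle overlapped between groups. Mdh1, cytosolic malate dehydrogenase, differed by -0.17, the cytosolic aspartate aminotransferase gene Got1 by -0.22 and the mitochondrial one, Got2, by -0.04. Their WT gaps, 0.36 to 0.49, exceeded these differences. Without WT replicate 2, Mdh1 was at 0.07 and Got1 at 0.02, and without dbTg replicate 1 Got1 was at 0.14.

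**Figure D2:**
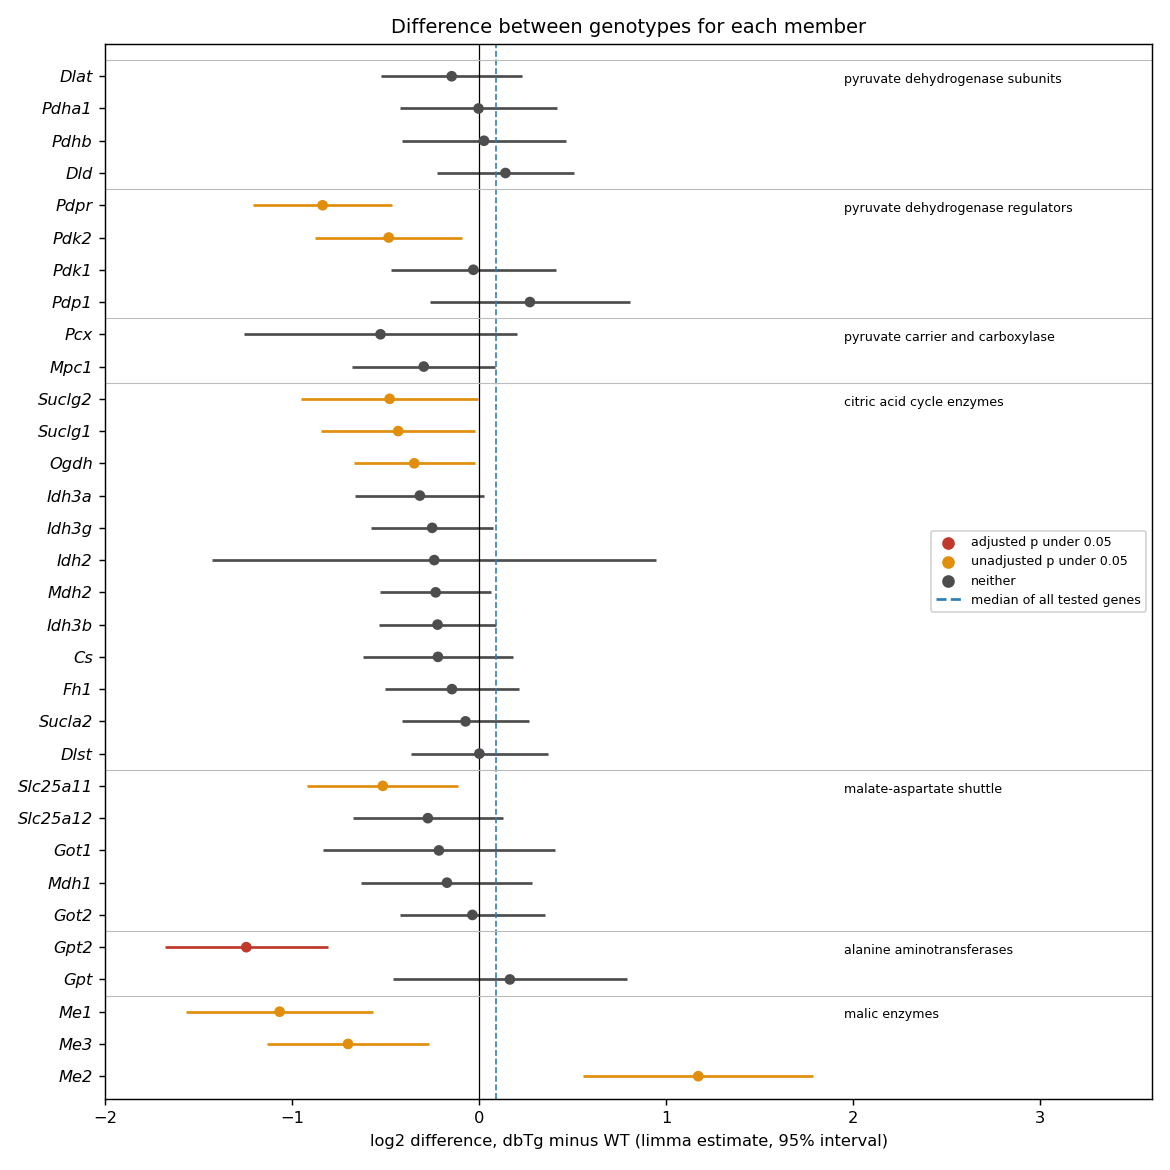
The limma estimate of the log2 difference, dbTg minus WT, for each member (x axis) with its 95% interval (bars), grouped by role (y axis). Only the interval of Gpt2 belongs to an adjusted p under 0.05; 9 more genes have an unadjusted p under 0.05, and the dashed line marks the median of all tested genes, 0.089.

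The alanine aminotransferases exchange the amino groups of alanine and glutamate. Gpt2, the mitochondrial form, read 6.77 and 7.10 in WT and 5.79 and 5.59 in dbTg. Both dbTg arrays lay below both WT arrays, with differences of -0.99 between males and -1.51 between females. The fall from 6.93 ± 0.23 to 5.69 ± 0.14 (SD, n = 2 each) was 2.37-fold (log2 difference -1.25, SE 0.18, limma adjusted p = 0.0280). Its difference stood at the 0.150 percentile of all tested genes. The call was lost under a replicate block (limma adjusted p = 0.0854). It was also lost when either dbTg array was left out, which leaves 1 mouse in that group. Over the alternatives the difference stayed between -1.41 and -1.08. Gpt, the cytosolic form, read 2.45 and 2.99 in WT and 2.75 and 3.01 in dbTg, a difference of 0.16 with overlapping groups (95% interval -0.46 to 0.79).

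The malic enzymes, which convert malate to pyruvate with the release of CO2, differed most widely among themselves. None passed the adjusted threshold in limma. All 3 had an unadjusted p under 0.05, 2 lower and 1 higher, as had 4.64% and 14.0% of all tested genes. In all 3 the groups were separate, 2 with dbTg below WT and 1 above, as were 16.3% and 33.7% of all tested genes. Me1, the cytosolic NADP-dependent form and a source of NADPH for lipid synthesis, read 8.68 and 8.12 in WT and 7.45 and 7.22 in dbTg. The difference of -1.07 (SE 0.21, adjusted p = 0.0568) leaves 47.7% of the WT level and was -1.23 between males and -0.91 between females. Me1 was called in 3 alternatives, without WT replicate 1 (-0.79, limma adjusted p just under the threshold), without WT replicate 2 (-1.35, 0.00661) and at a 60th percentile filter (0.0477). Its adjusted p ranged from 0.00661 to 0.397. Me3, the mitochondrial NADP-dependent form, read 4.79 and 4.77 in WT and 4.10 and 4.06 in dbTg. Its arrays repeated within 0.04 in each group, and the difference was -0.70 (SE 0.18, adjusted p = 0.108). With the mean of its 2 probe sets, of which the dimmer one differed by -0.12, it was -0.41. Me2, the mitochondrial form that prefers NAD, went the other way. It read 3.05 and 2.67 in WT and 4.26 and 3.81 in dbTg, a 2.25-fold higher mean (log2 difference 1.17, SE 0.26, adjusted p = 0.0760). Without WT replicate 1 the difference was 1.36, and over the alternatives it lay between 0.94 and 1.40. The leukocyte markers, median difference 1.77 with 18 of 19 positive, were higher in the same mice, and their part in the result for Me2 was not tested.

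**Figure D3:**
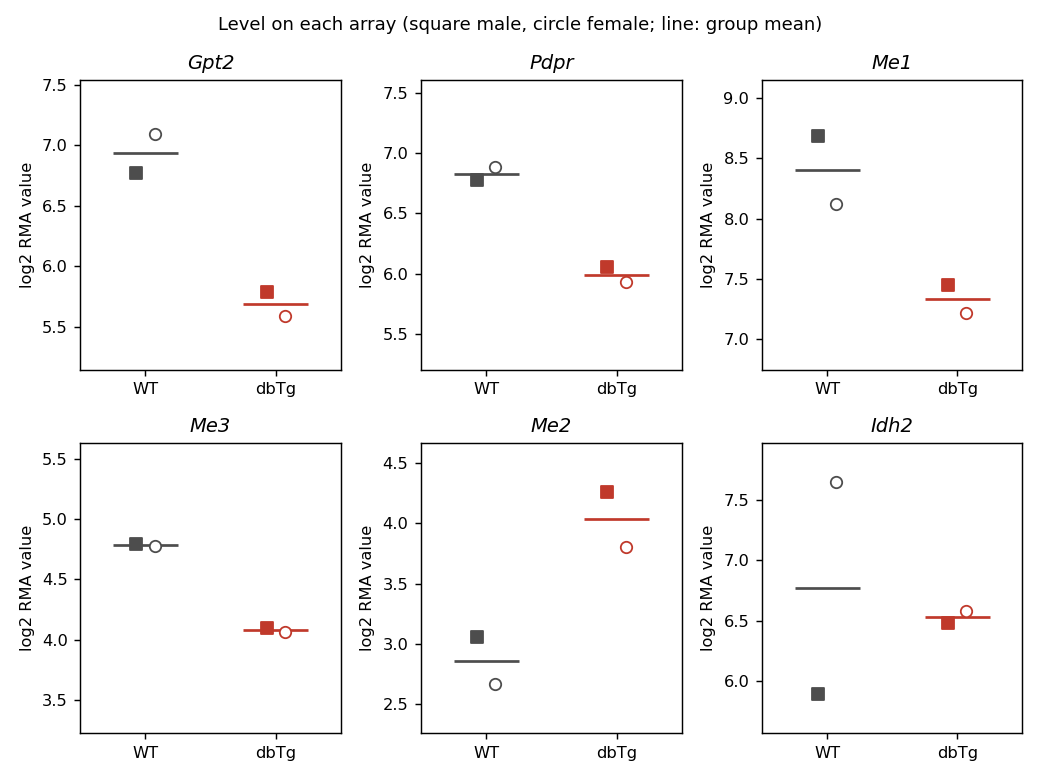
Log2 RMA value (y axis, the same span in each panel) of Gpt2, Pdpr, Me1, Me3, Me2 and Idh2 on each array by group (x axis), with squares for males, circles for females and lines for group means. The groups are separate for the first 5 genes, with Me2 alone higher in dbTg, whereas the WT arrays of Idh2, at 5.90 and 7.65, enclose both dbTg arrays.

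The gap between the WT arrays set how far each difference could be read. Its median was 0.22 over the members and 0.25 over all tested genes. The difference between groups exceeded the gap for 18 of the 32 members, where 49.7% of all tested genes did so. It did so for Gpt2, Pdpr, Me3, Me1 and Me2. For Cs, Mdh2, Idh3a and Slc25a12 a small gap, 0.00 to 0.03, made a modest difference exceed it, while their dbTg arrays lay 0.13 to 0.45 apart.

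**Figure D4:**
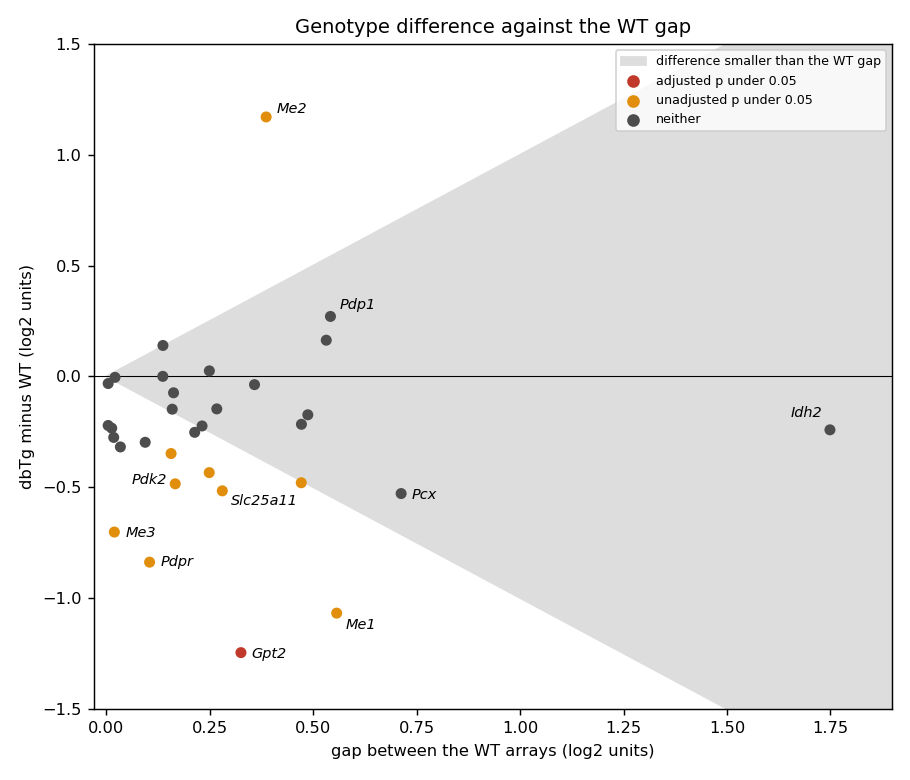
The log2 difference of each member, dbTg minus WT (y axis), against the gap between its WT arrays (x axis, log2 units); the grey area holds differences smaller than the gap, and colours mark the tests. Gpt2, Me1, Pdpr, Me3 and Me2 lie outside the grey area, and Idh2 lies inside it at a gap of 1.75.

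Other genes of the same pathways, from lists of 51 genes of which 43 were tested, had no common direction. In limma 0 of the 43 were lower or higher past the threshold, where 0.203% and 2.01% of all tested genes were. An unadjusted p under 0.05 was found for 3 in the lower direction (6.98%, against 4.64% of all tested genes). It was found for 5 in the higher direction (11.6%, against 14.0%). The median difference was -0.06, beside 0.089 for all tested genes. Among 5 further cycle genes the median was -0.28, and the succinate dehydrogenase genes Sdha and Sdhb were at -0.33 and -0.33 (limma adjusted p = 0.275 and 0.464). Around pyruvate dehydrogenase, the kinase gene Pdk3 was at 0.40 and the lipoyltransferase gene Lipt1 at -0.32 (adjusted p = 0.331 and 0.513). The kinase gene Pdk4, named after its values were seen, read 8.23 and 9.38 in WT and 8.91 and 7.78 in dbTg, so its groups overlapped widely. Among carriers and shuttles, Gpd2, the mitochondrial enzyme of the glycerol phosphate shuttle, was at -0.97 (limma adjusted p = 0.0720). Without WT replicate 2 it was at -1.21. The citrate carrier gene Slc25a1 was at 0.65 (adjusted p = 0.229). Of the cytosolic and nitrogen enzymes, Pck1, phosphoenolpyruvate carboxykinase, was at 1.04 (limma adjusted p = 0.0690). Adsl, adenylosuccinate lyase of the purine nucleotide cycle, was at -0.76 (limma adjusted p = 0.0781), and at -0.87 without WT replicate 2. Beside the positive values of Pck1 and Slc25a1, adipocyte markers had a median of 1.03, with 8 of 9 positive and summed linear levels of 360 and 661 in WT and 620 and 559 in dbTg. Their part in these values was not tested. Among regulators of mitochondrial genes, the muscle coregulator gene Perm1 was at -0.74 (adjusted p = 0.190). It was at -1.10 without WT replicate 1 and at -0.39 without WT replicate 2. The coactivator gene Ppargc1b was at 0.66 (adjusted p = 0.216), and Ppargc1a, the main coactivator of mitochondrial biogenesis, at 0.12 (adjusted p = 0.791).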

How the data were processed

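The authors deposited RMA values in log2 units from Affymetrix Expression Console (RMA-sketch), per the labels. RMA corrects background, normalizes arrays by quantiles and summarises probe sets. No software version or genome build was found in the labels. Rows with exactly 1 symbol were kept (23521 of 41345), and each gene took its brightest row by the mean over 4 arrays. Genes at or above the 40th percentile (1.48) were tested with limma 3.58.1 in R 4.3.3 (lmFit, eBayes with trend, 2 residual and 4.76 prior degrees of freedom), two-sided, with Benjamini-Hochberg adjustment over 13308 genes and a threshold of 0.05. Intervals are limma's, at 95%. Ratios between members on an array are not reported, since they set different probe sets against each other. The fit was tried on simulated data, with 200 changed genes in each of 20 rounds. Errors were independent and normal, with variances drawn from limma's own prior and no differences by sex or fibre type. There the fit called 12.45% of the 2-fold and 89.25% of the 4-fold changes, and 5.57% of its calls were false. Most 2-fold changes were thus missed in the simulation. The share of false calls on the real arrays was not tested.

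All members are named. Of the other pathway genes, any called and otherwise the 2 with the smallest p in each list are named. Pdk4 and Ppargc1a were added after their values were seen. The members and lists were chosen with earlier results of these data known. Promoters are RefSeq windows of GRCm38.p6. The alternatives left out single arrays, added a replicate block, or changed the normalization, the filter, the probe set rule or the variance model.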

Additional observations from a re-analysis of the deposited data

Results flagged for a closer look

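For 9 of the 32 members the male and female pairs differed in opposite directions, as 36.7% of all tested genes did. Each sex has 1 array per genotype, so these differences were not tested. The female minus male values of the log2 difference were -1.66 for Idh2 and -1.18 for Pcx, where the male pair was positive. They were -0.37 for Sucla2, -0.30 for Fh1 and -0.16 for Got2, in the same sense. In the opposite sense they were 0.43 for Pdha1, 0.21 for Pdk1, 0.20 for Pdhb and 0.11 for Dlst.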

How the results depend on the processing

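Gpt2 stayed lower in all 12 alternatives and past the limma threshold in 9 of them. The number of members called lower ranged from 0 (without either dbTg array) to 4 (without WT replicate 1: Gpt2, Idh2, Me1 and Pdpr) when 1 array was left out. It was 0 with the replicate number as a block, 3 with the filter at the 60th percentile, and 2 when probe sets were averaged or under robust eBayes. Lower calls over all tested genes in these settings were 2, 44, 31 and 37 in that order, beside 27 in the main fit. With all 4 arrays kept, no member was called higher and no other pathway gene was called. The median difference of the members lay between -0.30 and -0.16 over all alternatives. The sign held for 20 of the 32 members throughout, among them 19 of the 26 negative ones. No label ties the replicate numbers to a shared litter or day, and the gaps between replicates correlated across genes between the groups at 0.05 over all tested genes and 0.13 over the members. The numbers were therefore not taken to pair the samples, although they coincide with sex and all 10 slow fibre markers were higher in replicate 2 of both groups. The replicate block is thus also a term for sex, which the main fit leaves out. Over all tested genes the block left 63 higher and 2 lower calls, beside 267 and 27. Quantile normalization gave 120 higher and 7 lower calls, no filter 165 and 7, the 60th percentile 325 and 44, and eBayes without trend 246 and 14. Calls also rose and fell widely when 1 array was left out, where the spread comes from the other group alone. The cause of these changes was not tested.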
